A study of Mus musculus with 20 samples.

Results

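The microRNA miR-21a was followed through both arms of its hairpin, miR-21a-5p and miR-21a-3p, in small RNA libraries of 20 mouse hearts. The 2 members were taken by name from the 1545 entries of the count-derived table. miR-21a-5p was among the 360 miRNAs abundant enough to be tested, and miR-21a-3p was not. The series compared hearts of C57BL/6J mice after myocardial infarction and CIH together (MI+CIH, n = 7), after myocardial infarction alone (MI, n = 4), after CIH alone (CIH, n = 4) and after sham handling (sham, n = 5). CIH is given by its letters only and is read as chronic intermittent hypoxia, repeated falls in inhaled oxygen that model sleep apnoea; the series title speaks of sleep breathing disorders and remodeling after infarction. All groups share the strain, and the age of the mice, the time after infarction, the hypoxia schedule and the part of the heart sampled are not given in the sources used here. The labels do not say outright that each library is a separate animal, so p-values measure the spread between libraries.

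miRNAs are cut from a hairpin whose arms give the 5p and the 3p strand; the strand that is loaded into an Argonaute protein pairs through its seed, the bases near its 5′ end, with messenger RNAs and represses them. miR-21-5p is the strand usually retained and is known to repress Spry1 and Pdcd4. In the heart it is best known from fibroblasts, where it is raised in injured and failing hearts and has been linked to fibrosis, and the 3p strand has been described in exosomes released by rat cardiac fibroblasts.

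The mature strands are shown first, because the level of a miRNA is the count of reads assigned to such a sequence; capitals mark the seed, bases 2 to 8. They are RefSeq sequences of the GRCm38.p6 assembly, which is the build of the mm10 coordinates named in the submitters' processing notes. Mir21a lies on the minus strand of chromosome 11, with miR-21a-5p at chr11:86584120-86584141 and miR-21a-3p at chr11:86584082-86584103.
miR-21a-5p: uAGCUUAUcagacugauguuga
miR-21a-3p: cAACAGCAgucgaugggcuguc
The hairpin spans 92 bases, chr11:86584067-86584158, and in GENCODE M21 it lies on the same strand as Vmp1, inside that gene's exon chr11:86583865-86585451 and its annotated untranslated region. Of 1679 mature mouse miRNAs in RefSeq, 2 carry the miR-21a-5p seed, itself included, and 1 carries the miR-21a-3p seed. The other with the 5p seed is miR-21c, which was not analysed here; miR-21b, also not analysed here, has a seed that differs from it.
miR-21c: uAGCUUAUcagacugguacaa
miR-21b: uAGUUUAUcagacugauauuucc

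Values are RPM, the reads of a miRNA per 1000000 reads assigned to the entries of that library. Library totals were 1991323 to 18138415 reads, and 7.79% to 31.6% of these stood in 11 entries that count the reads of another entry a second time; neither miR-21a arm was among these. Clustering the libraries without the miR-21a entries, with the number of sets fixed at 3, gave sets that do not follow the groups alone. Set A (n = 11) consisted of MI+CIH 1, MI 2 and all CIH and sham hearts. The MI+CIH hearts 2 to 5 made up set B with MI 1 and MI 3 (n = 6). Set C was MI+CIH 6, MI+CIH 7 and MI 4 (n = 3). Sets B and C hold only infarcted hearts, and the sets were cut from values of the same tested miRNAs. A set term can therefore take out differences that go with infarction, so calls lost with it do not show that such differences are absent. A summed list of 5 miRNAs known from fibroblasts (miR-199a, miR-199b and miR-214 strands) was 1932 RPM in sham 1 and 404 to 439 RPM in the other sham hearts, and in MI 2 it was 382 RPM, the lowest MI value. These 2 libraries stood apart from their labels' groups, and whether their labels are right was not tested. Where leaving sham 1 and MI 2 out changes a call or clearly moves a value, the value without them is given too. MI+CIH 1, the only MI+CIH heart in set A, also stood apart and was kept in those fits. A summed list of 6 miRNAs known from leukocytes was 628 RPM in it and 2044 to 3299 RPM in the other MI+CIH hearts. Members of the list differed: miR-146a-5p, miR-150-5p, miR-155-5p and miR-223-3p were lowest of the group in this heart. Its miR-142a-5p was the highest (405 RPM, against 21.1 to 251 RPM), and its miR-142a-3p (32.6 RPM) was within the range of the others. Its fibroblast sum of 1775 RPM was within the range of the others. Whether its label is right was not tested either. In whole hearts, a change in the number of cells of a type cannot be told apart from a change in RNA per cell.

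miR-21a-5p was one of the most abundant miRNAs of the heart, with a mean of 31576 RPM over the 20 libraries, the 5th highest once second copies were dropped. It took 0.773% to 10.8% of the reads of a library, on 17698 to 1948074 reads. In MI+CIH hearts it ranged from 8888 RPM in MI+CIH 4 to 108142 RPM in MI+CIH 1, with a median of 44349 RPM. In MI hearts it was 20197, 17547, 15334 and 7732 RPM in MI 1 to 4. In CIH hearts it was 13116, 14897, 16956 and 15319 RPM in CIH 1 to 4. In sham hearts it was 100570, 17878, 23457, 28616 and 21109 RPM in sham 1 to 5. The MI+CIH and sham hearts were therefore the high and scattered groups, and the CIH hearts were low and close together. The median was 16441 RPM in MI, 15108 RPM in CIH and 23457 RPM in sham hearts, so MI+CIH was highest, followed by sham, MI and CIH. The values of each group overlapped those of its neighbour in this order.

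The means follow the single high hearts. MI+CIH hearts averaged 45542 ± 35334 RPM, MI hearts 15203 ± 5363 RPM, CIH hearts 15072 ± 1577 RPM and sham hearts 38326 ± 35015 RPM (SD, n = 7, 4, 4 and 5). The spread of the sham group rested on sham 1, and the other 4 sham hearts averaged 22765 ± 4521 RPM. Without MI+CIH 1 the other 6 MI+CIH hearts averaged 35109 ± 24162 RPM, so the combined group stayed scattered. Without MI 2 the MI hearts averaged 14421 ± 6283 RPM. Counting error was small beside these differences, with a 95% interval of ± 0.140% in the deepest count (MI+CIH 1) and ± 1.48% in the shallowest (MI+CIH 4); intervals and detection limits cover counting error only.

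**Figure D1:**
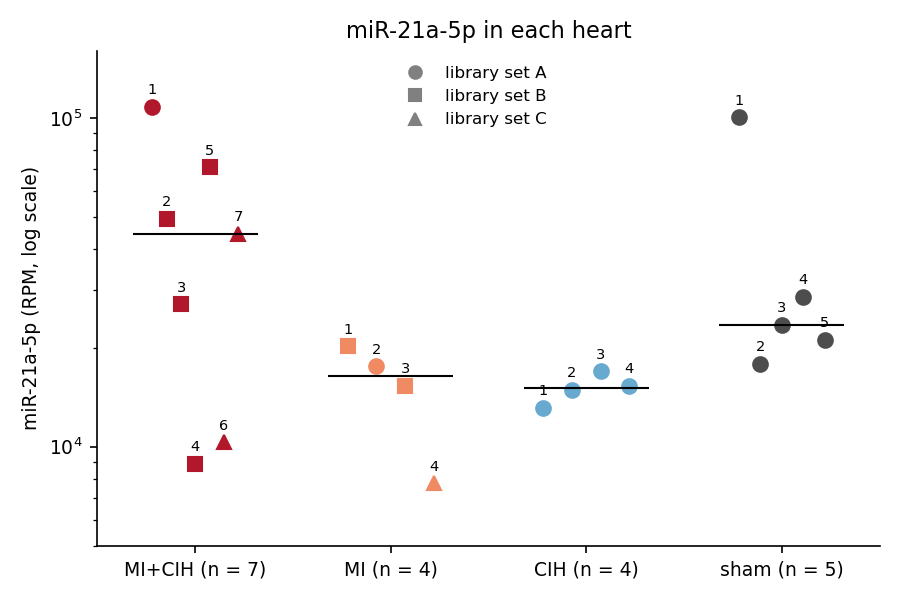
miR-21a-5p in each heart, in RPM on a log axis, by group; each point is 1 library numbered by replicate, its shape gives the library set and the bars are group medians. The highest MI+CIH heart (108142 RPM) and sham 1 (100570 RPM) sit at a like height, and the 4 CIH hearts sit below all 5 sham hearts.

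Whether CIH adds to infarction was asked by MI+CIH against MI. miR-21a-5p was higher in MI+CIH hearts by 1.20 on the log2 scale (2.30-fold, SE 0.59, 95% interval -0.03 to 2.43), a difference that did not pass the test (limma, adjusted p = 0.895, unadjusted p = 0.0552). The median change of the 360 tested miRNAs was 0.41, so relative to it miR-21a-5p was higher by 0.79. The groups overlapped, because MI+CIH 4 and MI+CIH 6 (8888 and 10320 RPM) lay below 3 of the 4 MI hearts.

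Set beside the MI hearts of their own library set, 6 of 7 MI+CIH hearts were above every MI heart. In set A, MI+CIH 1 had 108142 RPM, against 17547 RPM in MI 2. In set B, MI+CIH 2, 3, 4 and 5 had 49332, 27090, 8888 and 70676 RPM, against 20197 RPM in MI 1 and 15334 RPM in MI 3. In set C, MI+CIH 6 and 7 had 10320 and 44349 RPM, against 7732 RPM in MI 4. MI+CIH 4 was the heart that lay below its set's MI hearts. Without set A, where MI 2 is the only MI heart, 5 of 6 MI+CIH hearts were above. A count of at least 6 such hearts was reached by 58 of the 360 miRNAs (16.1%), so it was not rare among them. With the library set as a term the difference was 1.33 (limma, adjusted p = 0.262). It was smaller after median-of-ratios scaling (0.73, limma, adjusted p = 0.993) and after TMM scaling (0.67, limma, adjusted p = 0.999). An exact permutation test on log2 values gave p = 0.133 (0.167 after adjustment over 5 comparisons). No miRNA passed this comparison (0% of 360 by limma, 17 at an unadjusted p under 0.05, 0 by edgeR and 0 by DESeq2).

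In MI hearts miR-21a-5p was lower than in sham hearts by 1.08 on the log2 scale in the fitted means (a log2 change of -1.08, SE 0.63, 95% interval -2.40 to 0.23), which did not pass (limma, adjusted p = 0.222). The median of all tested miRNAs was 0.94 in the same comparison, and relative to it miR-21a-5p stood at -2.02. MI 2, MI 3 and MI 4 lay below every sham heart, and MI 1 (20197 RPM) lay above sham 2 (17878 RPM). MI hearts of sets B and C have no sham heart in their set, and MI 2 (17547 RPM) is the only MI heart beside the sham hearts. With the set term the change was -0.14 (limma, adjusted p = 0.996). That value is not MI 2 against sham hearts alone, because the fit also uses MI+CIH 1 and the MI+CIH and MI hearts of sets B and C. Without sham 1 the change was -0.65, without sham 1 and MI 2 it was -0.75, and it was -2.01 with median-of-ratios scaling, -2.03 with TMM, -2.12 with edgeR and -1.93 with DESeq2, none of which passed. An exact permutation test over all 9 hearts gave p = 0.0317 (0.0794 adjusted over the 5 comparisons). No miRNA passed limma here (0% of 360); before adjustment 101 were under 0.05, and 39 were called by DESeq2 and 0 by edgeR. For miR-21a-5p the DESeq2 adjusted p was 0.065.

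CIH against sham was the comparison without overlap for miR-21a-5p. All 4 CIH hearts, at 13116 to 16956 RPM, lay below all 5 sham hearts, at 17878 to 100570 RPM. The log2 change was -1.01 (SE 0.63, 95% interval -2.33 to 0.30), and it did not pass across the 360 miRNAs (limma, adjusted p = 0.998). Without sham 1 it was -0.58. The exact permutation test on the log2 values of these hearts gave p = 0.0159, the smallest that 4 against 5 hearts allow, and 0.0794 after adjustment over the 5 comparisons. Groups separated in this direction in 10 of 360 miRNAs (2.78%). All of these hearts belong to set A. No miRNA passed limma (0% of 360; before adjustment 1 was under 0.05), and DESeq2 called 1 and edgeR 0.

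**Figure D2:**
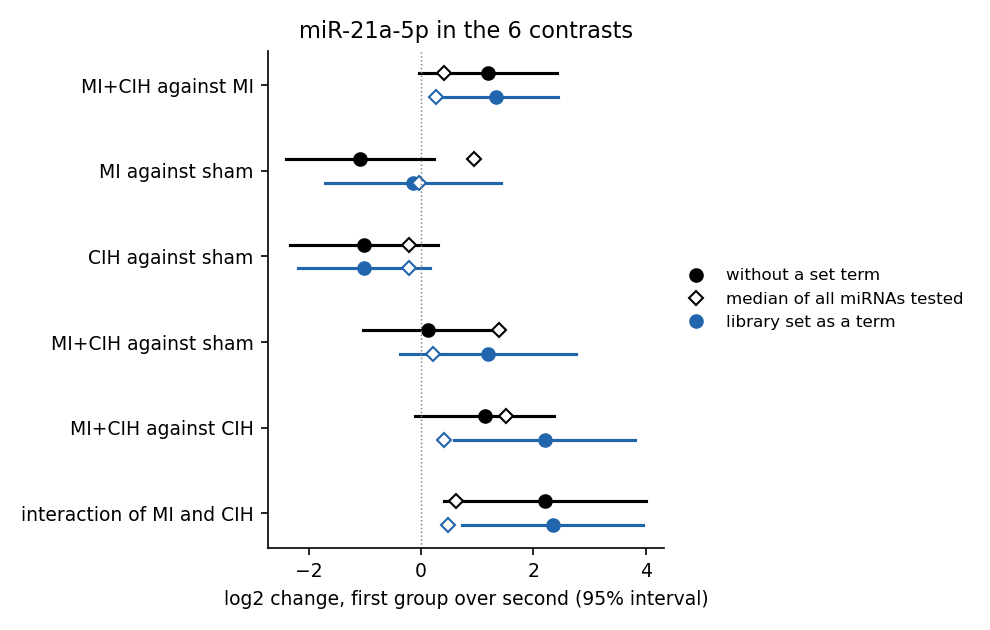
Log2 changes of miR-21a-5p with 95% intervals in 6 contrasts, first group over second, from limma without (black) and with (blue) the library set as a term; open diamonds are the median of the 360 tested miRNAs in the same fit. MI against sham is at -1.08 without the set term and -0.14 with it, and the interaction is at 2.21 and 2.35.

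The hearts with both insults showed no direction for miR-21a-5p against sham hearts that held across scalings. The log2 change was 0.12 (SE 0.55, 95% interval -1.03 to 1.27; limma, adjusted p = 0.863), and it was -1.28 after median-of-ratios scaling and -1.36 after TMM scaling. Without sham 1 it was 0.55 (adjusted p = 0.399), and with the set term it was 1.19 (adjusted p = 0.680). The median of all tested miRNAs was 1.39, with 188 of 360 called higher (52.2%) and 16 called lower (4.44%), so miR-21a-5p stood 1.27 below the median miRNA, a relative change of -1.27. That split depends on scaling: 58 of 116 calls were higher with median-of-ratios factors and 51 of 106 with TMM.

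Against CIH hearts, miR-21a-5p in MI+CIH hearts was higher by 1.13 on the log2 scale (SE 0.59, 95% interval -0.10 to 2.36), which did not pass (limma, adjusted p = 0.103). After median-of-ratios and TMM scaling it was -0.55 and -0.64, and it was 0.13 with edgeR (adjusted p = 0.904) and 0.23 with DESeq2 (adjusted p = 0.814). Here 197 of 360 miRNAs were called higher (54.7%) and 8 lower (2.22%), against 43 of 93 calls higher with median-of-ratios factors and 39 of 82 with TMM, and the median was 1.51. Of the 7 MI+CIH hearts, 5 were above the highest CIH heart (16956 RPM), and MI+CIH 4 and 6 were below the lowest (13116 RPM). Without MI+CIH 4 the change was 1.45 (limma, adjusted p = 0.033) and without MI+CIH 6 it was 1.41 (adjusted p = 0.037), so the call turns on either heart. MI+CIH 1 is the only MI+CIH heart in the set of the CIH hearts. With the set term the change was 2.20 (adjusted p = 0.205).

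The interaction asked whether the change with infarction differed between CIH and sham handling. In the fitted means MI+CIH hearts were above CIH hearts while MI hearts were below sham hearts. The difference of these 2 changes was 2.21 on the log2 scale (SE 0.87, 95% interval 0.41 to 4.01, unadjusted p = 0.0183), with an adjusted p of 0.880 by limma. Relative to the median of all miRNAs it was 1.58. Without sham 1 it was 1.78, and without sham 1 and MI 2 it was 1.88. With the set term it was 2.35 (95% interval 0.74 to 3.95, unadjusted p = 0.0065, adjusted p = 0.185). After median-of-ratios scaling it was 1.46 (95% interval -0.56 to 3.49, limma, unadjusted p = 0.147). After TMM scaling it was 1.38 (95% interval -0.90 to 3.66, limma, unadjusted p = 0.221). Under these scalings the MI+CIH hearts were below the CIH hearts in the fitted means (-0.55 and -0.64). No miRNA passed (0% of 360; 14 at an unadjusted p under 0.05, 0 by edgeR and 0 by DESeq2). The comparisons share groups, sham 1 enters 4 of the 6 contrasts, and they are not independent of each other.

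miR-21a-3p was at the edge of detection. Summed over the 20 hearts there were 202 reads of miR-21a-3p, against 6478510 reads of miR-21a-5p, which is 31.2 reads of the 3p strand per 1000000 reads of the hairpin (exact 95% interval 27.0 to 35.8). Among 202 hairpins with at least 1 arm tested, this minor arm share of 0.00312% was the third lowest, after miR-101b, with 0 reads of its 5p strand, and miR-1b, whose 5p entry is one of the second copies of another entry's reads. The mean of miR-21a-3p was 0.901 RPM, rank 471, and it had at least 1 read in 15 of 20 hearts.

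By heart, miR-21a-3p was highest in hearts with much miR-21a-5p, though MI+CIH 2, with 49332 RPM of miR-21a-5p, had no read of it. MI+CIH 1, 5 and 7 had 2.78, 2.72 and 1.56 RPM (50, 16 and 19 reads), MI+CIH 6 had 0.303 RPM (4 reads) and MI+CIH 2, 3 and 4 had 0 reads, which allows up to 0.459, 1.46 and 1.51 RPM. MI hearts had 0.981, 0.828, 0 and 0.0551 RPM in MI 1 to 4, and CIH hearts had 0.140, 0.417, 0 and 0.675 RPM in CIH 1 to 4. Sham 1 had 6.12 RPM (67 reads), while sham 2 to 5 had 0.135, 0.195, 0.526 and 0.586 RPM (1 to 4 reads). The 4 hearts over 1 RPM were thus MI+CIH 1, 5 and 7 and sham 1. The zeros in MI 3 and CIH 3 allow up to 0.886 RPM in MI 3 and 0.290 RPM in CIH 3. No contrast of miR-21a-3p passed in a limma fit without the abundance filter; the log2 changes of RPM + 1 were 0.31 in MI+CIH against MI (SE 0.50, adjusted p = 0.916), -0.43 in MI against sham (adjusted p = 0.828), -0.55 in CIH against sham (adjusted p close to 1), -0.12 in MI+CIH against sham (adjusted p = 0.984) and 0.43 in MI+CIH against CIH (adjusted p = 0.603), and the interaction was 0.86 (adjusted p = 0.926). Without sham 1, MI against sham was 0.055, CIH against sham was -0.070, MI+CIH against sham was 0.36 and the interaction was 0.38, so the contrasts of miR-21a-3p with sham hearts rest on that library.

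**Figure D3:**
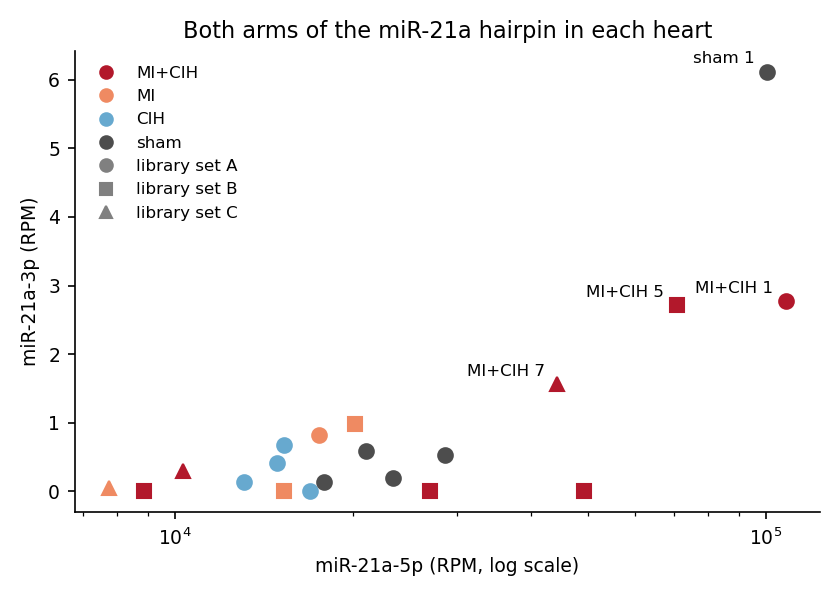
miR-21a-3p in RPM (linear axis) against miR-21a-5p in RPM (log axis) in each heart, coloured by group with the library set as the shape. MI+CIH 1, 5 and 7 and sham 1 (6.12 RPM) are the hearts over 1 RPM of miR-21a-3p, and 5 hearts are at 0.

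Pooled by group, the order of the 3p shares of the hairpin depended on sham 1. The share was 25.9 per 1000000 hairpin reads in MI+CIH hearts (89 reads, interval 20.8 to 31.9), 34.8 in MI hearts (22 reads, 21.8 to 52.7), 22.2 in CIH hearts (14 reads, 12.2 to 37.3) and 43.2 in sham hearts (77 reads, 34.1 to 54.0). Sham 1 gave 67 of the 77 sham reads, at 60.8 per 1000000 (47.1 to 77.2), and without it the other 4 sham hearts had 14.7 per 1000000 (10 reads, 7.06 to 27.1). Sham was thus the highest group with this heart and the lowest without it. The log2 ratio of the arms, (5p + 1)/(3p + 1) in RPM, averaged 14.21 ± 0.94 in MI+CIH hearts, 13.32 ± 0.44 in MI hearts, 13.51 ± 0.38 in CIH hearts and 13.98 ± 0.25 in sham hearts (SD, n = 7, 4, 4 and 5). None of the 5 differences passed an exact two-sided permutation test after adjustment over the 5; MI+CIH against MI was 0.89 (p = 0.109, adjusted 0.182), and MI against sham was -0.65 (p = 0.0476, adjusted 0.182). By the same exact test, CIH against sham was -0.46 (p = 0.0794), MI+CIH against sham 0.24 (p = 0.619) and MI+CIH against CIH 0.70 (p = 0.206). With 5 RPM added in place of 1, MI against sham (-0.89) and CIH against sham (-0.79) passed, both with an exact permutation p of 0.040 after adjustment. Because miR-21a-3p was near the added 1 RPM, this ratio moves mainly with miR-21a-5p.

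The miRNAs whose pattern was most like that of miR-21a-5p were sought among 165 others with a mean of at least 50 RPM, by Pearson's r of log2 values after each library set's mean was removed (n = 20 hearts). The first 5 were miR-140-3p (r = 0.92, Spearman's rho 0.76), miR-199a-5p (0.91, rho 0.81), miR-214-3p (0.87, rho 0.68), miR-146b-5p (0.86, rho 0.84) and miR-455-5p (0.86, rho 0.76). Without sham 1 and MI+CIH 1, the hearts farthest from the median, r was 0.86, 0.82, 0.74, 0.81 and 0.74 in the same order (n = 18). The set means removed were still those of all 20 hearts, so these values are not free of the hearts left out. In set B alone, which holds neither heart, r was 0.97, 0.98, 0.73, 0.80 and 0.99 (n = 6). Over all 20 hearts without removal of the set means r was lower, at 0.64, 0.49, 0.33, 0.37 and 0.26. All points share their library and its scaling, the miRNAs were picked as the highest of many, and the values are a description. Their mature strands are printed because none has the seed of either miR-21a strand.
miR-140-3p: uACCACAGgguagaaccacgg
miR-199a-5p: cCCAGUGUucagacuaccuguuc
miR-214-3p: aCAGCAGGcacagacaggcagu
miR-146b-5p: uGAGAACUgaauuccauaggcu
miR-455-5p: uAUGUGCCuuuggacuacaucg

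miR-140, known from cartilage, followed miR-21a-5p closely in set B. miR-140-3p had 11065, 7026, 3271 and 16132 RPM in MI+CIH 2 to 5, against 4514 RPM in MI 1 and 3305 RPM in MI 3, the same order of hearts as miR-21a-5p. In set A it was highest in MI+CIH 1 (5394 RPM) and sham 1 (4026 RPM), as miR-21a-5p was, and 626 to 1707 RPM in the other 9 hearts. miR-199a-5p and miR-214-3p, which are known from fibroblasts and can be made from 1 shared transcript on chromosome 1, were also highest in set A in these hearts. miR-199a-5p was 741 RPM in MI+CIH 1 and 590 RPM in sham 1, and 29.3 to 126 RPM in the other 9. By group, miR-199a-5p averaged 774 ± 648 RPM in MI+CIH hearts, 264 ± 256 RPM in MI hearts, 61.4 ± 27.2 RPM in CIH hearts and 183 ± 229 RPM in sham hearts (SD), or 81.1 ± 31.6 RPM in the 4 sham hearts other than sham 1.

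For miR-21a-3p, the pattern most alike among 166 candidates was that of miR-21a-5p (r = 0.80, and 0.66 without MI+CIH 1 and sham 1, n = 18). The value of 0.66 again kept the set means of all hearts, and in set B alone r was 0.57 (n = 6). Next to miR-21a-5p came miR-136-3p (0.79), miR-3071-5p (0.79), miR-199a-5p (0.78) and miR-455-5p (0.76). miR-136 and miR-3071 overlap on opposite strands of chromosome 12 and their counts were nearly equal, so they count as 1 pattern. With 0 to 4 reads of miR-21a-3p in most hearts, these values rest on the few hearts with more.

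**Figure D4:**
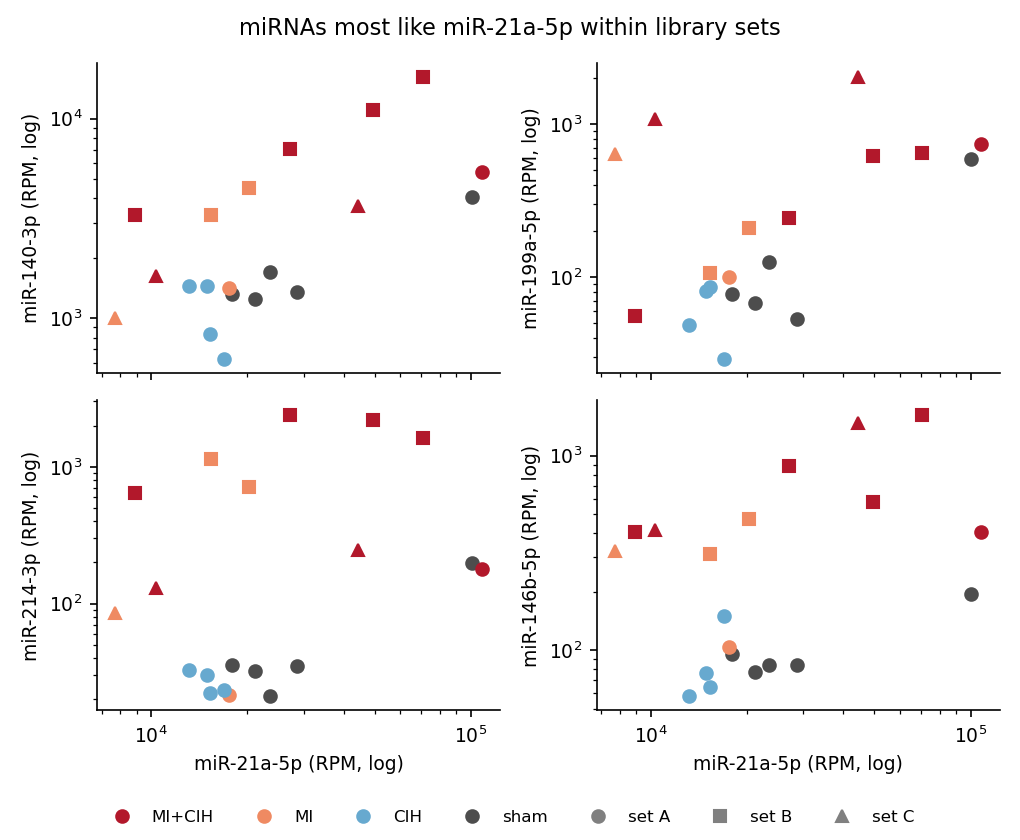
RPM of the 4 miRNAs most like miR-21a-5p against miR-21a-5p in each heart, both axes logarithmic, coloured by group with the library set as the shape. Within set B high miR-21a-5p mostly goes with high values of the others, and the sets lie at different heights. In set A, sham 1 and MI+CIH 1 lie at the right and are highest in all 4 miRNAs. The other set A hearts show no such clear order. Of these, sham 4 has the most miR-21a-5p (28616 RPM) but 53.3 RPM of miR-199a-5p.

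miR-21a-5p passed in none of the 6 contrasts by limma with all 20 libraries and no added term, and most other miRNAs reported to promote fibrosis passed in MI+CIH against sham. Of that list of 14, 12 were tested (miR-21a-3p and miR-212-3p were not). In MI+CIH against sham, 8 of the 12 rose, 2 fell and 2 did not pass, and miR-21a-5p was among those that did not pass (0.12). The median of the list was 2.20, beside 1.39 over all miRNAs, of which 52.2% rose and 4.44% fell. miR-214-3p rose by 3.75 (limma, adjusted p = 0.0030), and it averaged 1059 ± 989 RPM in MI+CIH hearts, against 64.5 ± 75.0 RPM in sham hearts, or 31.0 ± 6.8 RPM without sham 1. miR-433-3p rose by 2.89 (adjusted p = 0.0031) and miR-199a-5p by 2.13 (adjusted p = 0.022), and miR-125b-5p, miR-132-3p, miR-155-5p, miR-199a-3p and miR-34a-5p rose too. The 2 that fell were miR-22-3p, abundant in muscle, by 1.89 (adjusted p = 0.026), and miR-208a-3p, made from an intron of a myosin heavy chain gene of heart muscle. After median-of-ratios scaling 4 of the 12 rose and 2 fell (median 0.84 beside -0.03), where calls over all miRNAs were split evenly between higher and lower. With the set term 0 of the list and 0 of all miRNAs passed (median 0.31 beside 0.21). Without sham 1 and MI 2 the same 8 rose and miR-22-3p alone fell (median 2.47 beside 1.45).

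In MI+CIH against CIH the same 8 rose and 0 fell (median 2.71, all miRNAs 1.51), where 54.7% of all miRNAs rose and 2.22% fell. Under median-of-ratios scaling, where 43 of 93 calls over all miRNAs were higher, 2 of the list rose and 2 fell. With the set term 0 of the list passed (median 0.75 beside 0.42 over all). In MI+CIH against MI 0 of 12 passed by limma, with 10 positive changes and a median of 0.64 beside 0.41 over all; without sham 1 and MI 2 these medians were -0.01 and 0.03. The miR-21a-5p change of 1.20 was above that median there. In MI against sham 0 passed (8 positive, median 1.23 beside 0.94), and miR-21a-5p, at -1.08, was on the other side. Without sham 1 and MI 2, 114 of 360 miRNAs passed in MI against sham in either direction, and the median over all was 1.37. Of the 12, 6 rose (miR-125b-5p, miR-155-5p, miR-199a-3p, miR-214-3p, miR-34a-5p and miR-433-3p) and 0 fell, with a list median of 2.05. miR-21a-5p was at -0.75 and did not pass (limma, adjusted p = 0.367). In CIH against sham 0 passed, with 1 positive change and a median of -0.53 beside -0.21, and in the interaction 0 passed (median 1.04 beside 0.63).

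Of 14 miRNAs reported to restrain fibrosis, 13 were tested (miR-19a-3p was not), and they went both ways. In MI+CIH against sham 2 rose, 4 fell and 7 did not pass (median -0.14 beside 1.39), where 52.2% of all miRNAs rose and 4.44% fell. miR-133a-3p, of heart and skeletal muscle, rose by 1.60 (limma, adjusted p = 0.015) and miR-24-3p rose too. miR-101a-3p fell by 2.97 (adjusted p = 0.0031), miR-29c-3p, of a family that represses collagens, fell by 1.82 (adjusted p = 0.017), the muscle miRNA miR-1a-3p fell by 0.82 (adjusted p = 0.031), and miR-101b-3p fell. The 2 that rose did not pass after median-of-ratios or TMM scaling, where all 14 were tested and 0 rose and 6 or 5 fell. The list medians were then -1.49 and -1.51, beside -0.03 and -0.08 over all miRNAs. Under these scalings about as many calls over all miRNAs were lower as higher, as given above. In MI+CIH against CIH 3 rose and 2 fell (median 0.55 beside 1.51), where 54.7% of all rose and 2.22% fell. Under median-of-ratios scaling 0 of 14 rose and 5 fell (median -1.02 beside -0.07), where somewhat more calls over all miRNAs were lower than higher. With the set term 0 of the list passed in any contrast. In MI+CIH against MI, MI against sham, CIH against sham and the interaction 0 passed, with medians of 0.06, -0.23, -0.60 and 0.36 beside 0.41, 0.94, -0.21 and 0.63 over all. Without sham 1 and MI 2, miR-133a-3p and miR-24-3p rose and miR-101a-3p and miR-101b-3p fell in MI against sham, and 9 did not pass. The median of the list was then -0.49 beside 1.37 over all tested miRNAs, so a higher value was the common direction there.

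**Figure D5:**
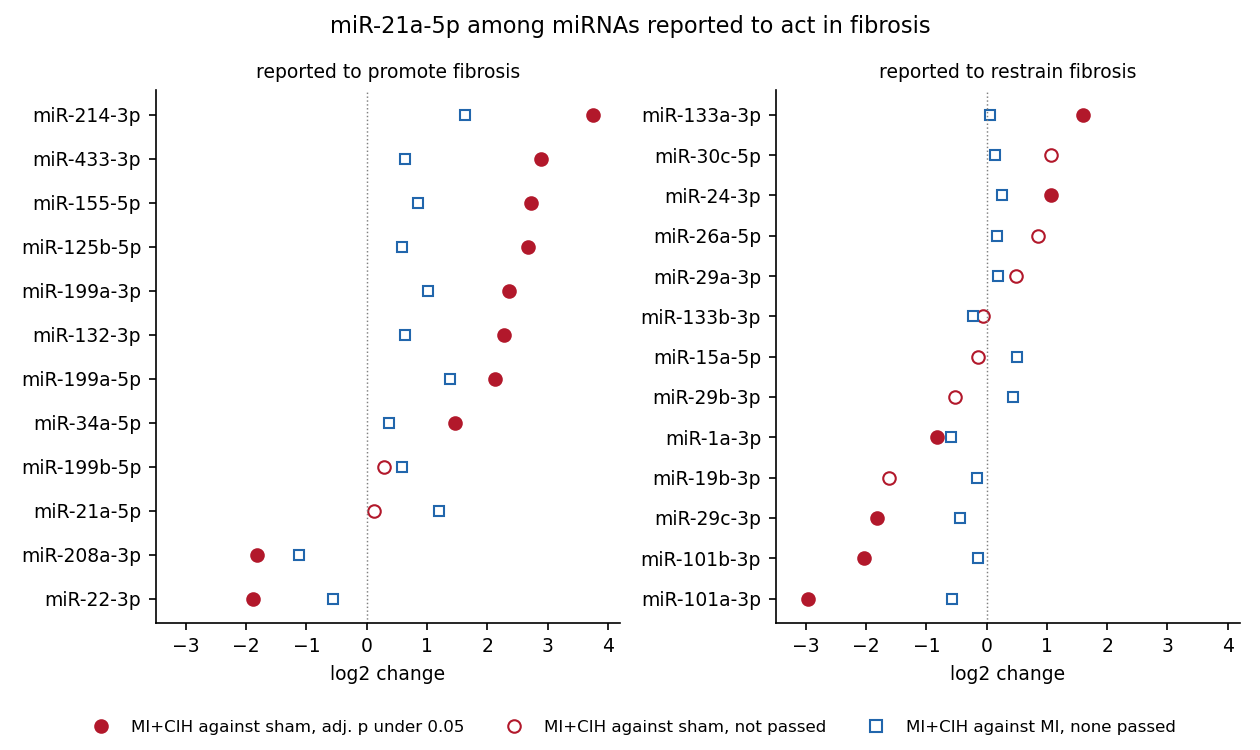
Log2 changes of the tested miRNAs reported to promote (left) or restrain (right) fibrosis, for MI+CIH against sham (circles, filled where the limma adjusted p is under 0.05) and MI+CIH against MI (squares). miR-21a-5p is at 0.12 and 1.20, while miR-214-3p is at 3.75 in MI+CIH against sham.

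Summed markers of other cell types differed between the groups, but members of a list did not all move alike. The part of these markers in the miR-21a-5p values was not tested. Of the leukocyte list, miR-142a-5p averaged 291, 99.4 and 173 RPM in sham, MI and MI+CIH hearts, and miR-150-5p 90.7, 644 and 677 RPM. In the same order, erythroid miR-451a averaged 1357, 611 and 2876 RPM, and miR-486a-5p 451, 3364 and 4152 RPM. Heart muscle miR-1a-3p, which dominates its sum, averaged 251938, 223269 and 155624 RPM, and miR-133a-3p 2940, 10979 and 11047 RPM. The 5 fibroblast miRNAs summed to 1278 to 7192 RPM in MI+CIH hearts, 382 to 4118 RPM in MI hearts, 191 to 438 RPM in CIH hearts and 404 to 1932 RPM in sham hearts. The 5 heart muscle miRNAs summed to 88429 to 269465 RPM in MI+CIH hearts, 164363 to 300726 RPM in MI hearts, 252947 to 317715 RPM in CIH hearts and 193400 to 278567 RPM in sham hearts. The lowest muscle sum of the sham group was that of sham 1, the heart with the highest miR-21a-5p. The 6 leukocyte miRNAs summed to 628 to 3299 RPM in MI+CIH hearts, 256 to 2387 RPM in MI hearts, 293 to 573 RPM in CIH hearts and 325 to 707 RPM in sham hearts. The 4 erythroid miRNAs summed to 1422 to 15227 RPM, 1012 to 7138 RPM, 1116 to 2480 RPM and 579 to 3984 RPM in MI+CIH, MI, CIH and sham hearts. The 2 endothelial miRNAs summed to 3162 to 50262 RPM, 5397 to 47505 RPM, 5976 to 10970 RPM and 8459 to 10682 RPM in MI+CIH, MI, CIH and sham hearts. The 3 smooth muscle miRNAs summed to 33783 to 272853 RPM, 26240 to 196214 RPM, 134653 to 246629 RPM and 199055 to 261504 RPM in the same groups. The hearts of library set C, all infarcted, had the highest endothelial sums and the lowest smooth muscle sums of the series. The upper ends of the MI+CIH and MI endothelial ranges and the lower ends of their smooth muscle ranges are therefore those of set C. Every infarcted heart outside set C had an endothelial sum below that of every sham heart. All listed markers were tested, and miR-142a-3p in 1 MI heart was the only one at 0.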

How the data were processed

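RNA of frozen hearts was extracted with Trizol and made into libraries by a NEBNext small RNA kit, according to the labels' protocols. The submitters' processing notes name mm10, Bowtie and DESeq 1.8.3; the miRBase release and counting rules are not given in the sources used here. The deposited table is headed TPM, but by its values the authors' unit is RPM: each column sums to 1000000 and no length enters. In each library 100% of values were whole reads (tolerance 0.05 reads), so reads were recovered; totals were 1991323 to 18138415. Of 1545 entries, 1427 carry miRBase names and 118 are predicted.

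The 360 miRNAs that reached 5 RPM in 4 or more libraries were tested with limma 3.58.1 in R 4.3.3, on log2(RPM + 1), by group means fitted to the 20 libraries together, with a trend, two-sided, adjusted by Benjamini-Hochberg in each contrast (threshold 0.05). "Rose" and "fell" are used of what passed. Fold changes on this scale understate changes of low miRNAs. miR-21a-3p did not pass the filter and was fitted without it. Arm ratios were tested by exact permutation (scipy 1.17.1). Alternatives were other pseudocounts, filters and scalings, a library set term, the replicate number as a block, each library left out, and edgeR 4.0.16 and DESeq2 1.42.0 on recovered reads. Library sets came from average-linkage clustering on 1 - Pearson's r, cut at 3 sets. Depth gives the stated counting intervals, which are exact at 95%, and 0 reads allows up to 3 reads.

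Members, lists and tests were chosen with earlier results of these data known. Besides both arms, miRNAs named are the 5 most like each arm, list members past the threshold and examples per list.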

Additional observations from a re-analysis of the deposited data

Results flagged for a closer look

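Sham 1 stood far from the other 4 sham hearts in both arms. Its miR-21a-5p level was 100570 RPM, against 17878 to 28616 RPM in sham 2 to 5, and the gap was 0.870 of the range of the group. Its miR-21a-3p level was 6.12 RPM, against 0.135 to 0.586 RPM, and the gap was 0.925 of the range. Of 12 tests of a group and measure, these 2 were flagged for the size of the gap. Both flags are of sham 1 and of arms of the same hairpin, so they are not independent. The limit is one that chance meets in about 1 in 20 groups if values are normally distributed, which was not tested for RPM. In the same heart the fibroblast miRNAs summed to 1932 RPM, against 404 to 439 RPM in sham 2 to 5; their part in the miR-21a values was not tested.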

How the results depend on the processing

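Of 177 values of the 17 comparisons under other settings, 163 kept their direction and side of the threshold, 4 passed where they had not and 10 changed sign; of 292 with 1 library left out, 281 kept both, 2 passed and 9 changed sign. The cause was not tested. For miR-21a-5p, MI+CIH against sham (0.12) was -1.28 with median-of-ratios scaling, -1.36 with TMM, -0.045 with second copies removed, -0.90 with edgeR, -0.70 with DESeq2, and -0.17 to 0.55 with 1 library left out. MI+CIH against CIH (1.13) was -0.55 with median-of-ratios and -0.64 with TMM, 0.13 with edgeR and 0.23 with DESeq2, and with 1 library left out it was 0.85 to 1.45, passing without MI+CIH 4 (adjusted p = 0.033) and without MI+CIH 6 (0.037). MI against sham (-1.08) was -0.14 with the set term and -2.12 to -1.93 with median-of-ratios, TMM, edgeR and DESeq2. MI+CIH against MI stayed between 0.67 and 1.41 and the interaction between 1.38 and 2.38 under other settings. For miR-21a-3p, MI against sham was 0.28 with the set term and -0.61 to 0.055 with 1 library left out; MI+CIH against sham was 0.69 with the set term, 0.36 without sham 1 and MI 2, and -0.30 to 0.36 with 1 left out. The arm ratio with 5 RPM added was -0.89 in MI against sham and -0.79 in CIH against sham (both adjusted p = 0.040). The limma fit over hairpins with both arms tested gave no value, because miR-21a-3p did not pass the filter; hairpins with at least 1 arm tested were used, an alternative chosen after seeing the data.

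Counts of miRNAs passing moved by over 1.5 times from 0 in MI+CIH against MI (1 without MI 3, 3 without MI+CIH 1, 2 with the set term), from 0 in MI against sham (14 with a mean of at least 50 RPM, 39 with DESeq2, 114 without sham 1 and MI 2, 113 without MI 2, 31 without MI+CIH 1), from 0 in CIH against sham (1 with DESeq2), from 204 in MI+CIH against sham (92 with that mean, 116 median-of-ratios, 106 TMM, 85 edgeR, 0 with the set term) and from 205 in MI+CIH against CIH (94, 93, 82, 75 and 0 in that order, and 133 with DESeq2).

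Replicate numbers do not pair these samples: 25 same-number pairs had correlations of deviations from the group means of -0.711 to 0.867 (median -0.014), with 10 over 0.1, against 50 of 122 other pairs. With the replicate number as a block, miR-21a-5p in MI+CIH against CIH was 1.34 (adjusted p = 0.045), and its arm ratio by limma across hairpins was 1.05 (adjusted p = 0.043). Depth limits miR-21a-3p, whose detection limit of 3 reads was 0.165 to 1.51 RPM. The list counts under other scalings or without sham 1 and MI 2, and the pooled shares and means without sham 1, were chosen after seeing the data.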

Other observations

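Among the 165 candidates, the patterns most opposite to that of miR-21a-5p were those of miR-128-3p (r = -0.88 after removal of the set means, n = 20, and -0.81 without sham 1 and MI+CIH 1) and miR-149-5p (-0.86 and -0.84). The second value of each kept the set means of all hearts. In set B alone r was -0.99 for miR-128-3p and -0.87 for miR-149-5p (n = 6). These names were chosen after their values were seen.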
